A study of Homo sapiens with 4 samples.

Results

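Chromosome 14 was followed through S phase in single cells of DKO1 and of HCT116. Its members are all 1021 bins of 80 kb that carry the chromosome number 14 in the deposited table of replication states, which is 3.69% of the 27704 bins of the table. All 1021 bins passed the minimum of 90% of cells with a call in DKO1 and in HCT116, and were used. They cover 81.68 Mb between positions 20560001 and 107280000 (coordinates as in the deposited table; the submitters' processing notes name the builds hg19 and GRCh37). The table has 8 gaps on the chromosome, and the widest, chr14:104000001-107040000, leaves 3.04 Mb near the distal end without bins.

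HCT116 is a human colorectal cancer line. DKO1 is the same line with a knockout of the DNA methyltransferase genes DNMT1 and DNMT3B. Whether any of either enzyme remained in DKO1 was not measured here. DNA-stained cells were sorted into early, mid and late S phase, pooled in equal numbers and loaded on a droplet copy-number system, and 207 DKO1 and 322 HCT116 cells were in the table, from 1 S-phase library per line. Both libraries shared the culture medium and the stock of 500 cells per uL, and how many clones DKO1 came from is not given in the sources used here.

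A cell copies its genome in a set order. Early domains are usually rich in active genes and lie inside the nucleus, and late domains are usually poor in genes and lie at the nuclear lamina. DNMT1 copies methylation onto newly made DNA and DNMT3B can methylate unmethylated sites. Chromosome 14 is acrocentric, with a short arm of repeats and ribosomal RNA genes, so the bins lie on the long arm.

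Each bin of a cell has a code, read here as replicated, unreplicated or not called. Progress is measured on the other autosomes, as the replicated percent of the bins called there in the cell. Its median was 48.6% in DKO1 cells (range 9.52 to 78.5%) and 52.4% in HCT116 cells (range 17.0 to 77.6%). To compare the lines at the same progress, cells were put in 6 strata of 10 points from 20 to 80%, which held 14, 40, 54, 48, 40 and 10 DKO1 cells and 35, 47, 61, 78, 81 and 18 HCT116 cells. The mean over strata of the percent of cells with a bin replicated, among cells in which it was called, is its standardised share. With 1 library per line there is no test between the lines and no p-value, cells are not replicates, and the intervals given (exact Clopper-Pearson, 95%) cover counting error of cells only. Counts of cells with most of a region replicated, and their intervals, are over the called bins of the region. They take the cells of a line with at least 50% of the region called, without matching of progress. Cells with less of the region called are left out. Median progress was lower in DKO1, so a difference in these counts also holds that difference in progress. The read depth of each cell is unknown.

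Chromosome 14 replicated as a chain of early and late domains with stretches of intermediate timing between them, largely shared by DKO1 and HCT116. The mean standardised share was 54.4% in DKO1 and 54.1% in HCT116, and across bins the shares of the lines had a Pearson's r of 0.979 and a Spearman's rho of 0.974. Bins are not independent of their neighbours, so these values describe the profile. By the mean of both lines, 422 bins (41.3%) had a share of at least 70% and were called early, 322 (31.5%) had at most 30% and were called late, and 277 (27.1%) lay between. On the other chromosomes 34.1% of bins were early and 35.9% late. Among 21 chromosomes with at least 100 bins, chromosome 14 ranked 8 in mean share in both lines and 12 in protein-coding genes per Mb.

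**Figure D1:**
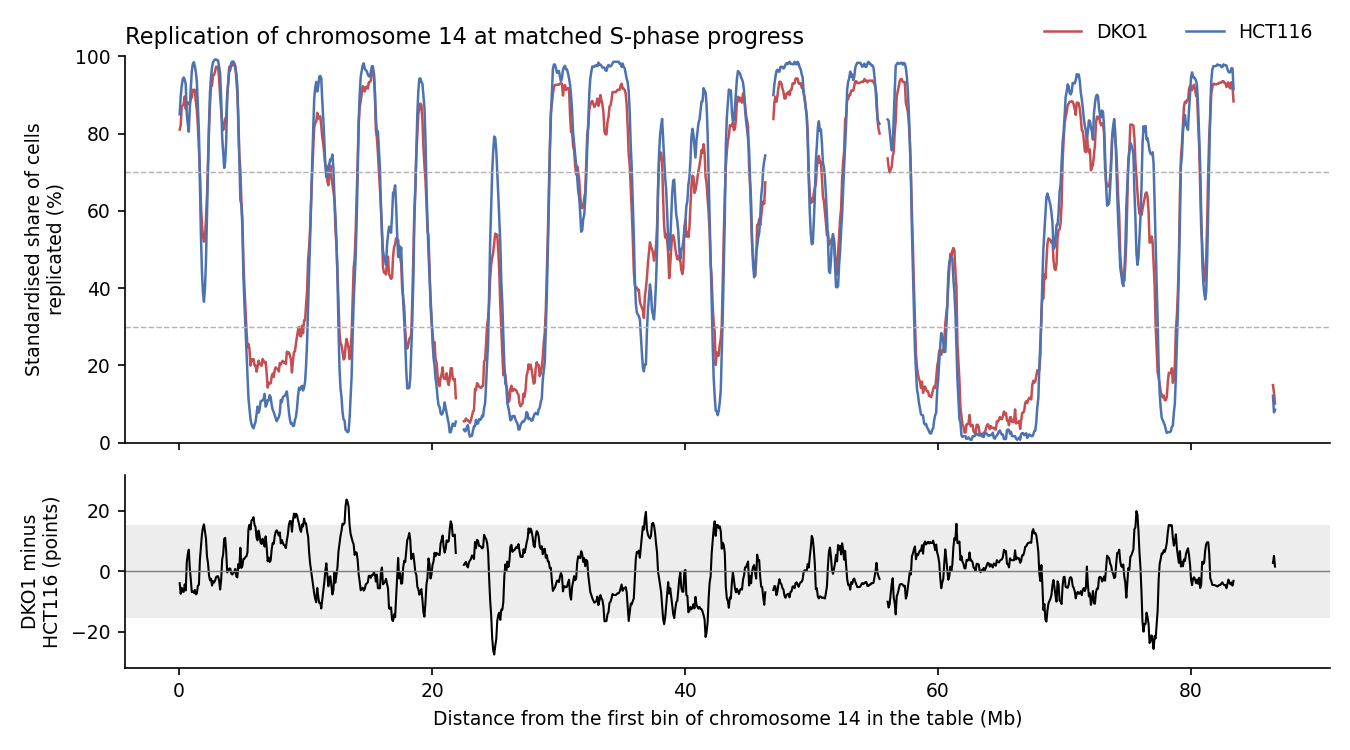
Standardised share of cells with each 80 kb bin replicated (upper panel, percent) in DKO1 (red) and HCT116 (blue), and the difference of DKO1 minus HCT116 (lower panel, percentage points), against distance from the first bin of chromosome 14. Dashed lines mark the limits of 70 and 30%, the grey band marks differences under 15 points, and DKO1 lies above HCT116 in the late valleys and mostly below it on the early plateaus.

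The early bins formed 20 domains of at least 5 bins, 0.4 to 3.6 Mb long and 33.04 Mb in all. The longest, chr14:52720001-56320000, had a mean share of 86.2% in DKO1 and 94.9% in HCT116. At chr14:90400001-93840000 (3.44 Mb) the share was 81.5% in DKO1 and 86.9% in HCT116. At chr14:73120001-76000000 (2.88 Mb) it was 90.7% in DKO1 and 93.6% in HCT116. These 3 domains were lower in DKO1, by 2.90 to 8.64 points, and the last of them was 0.61 points higher once the cells described below as outlying were left out.

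At chr14:67520001-70320000 (2.8 Mb) the share was 90.6% in DKO1 and 95.3% in HCT116. At chr14:22800001-25360000 (2.56 Mb) it was 90.5% in DKO1 and 90.4% in HCT116, so that this domain hardly differed between the lines. The first domain of the table, chr14:20560001-22160000, had 86.9% in DKO1 and 90.8% in HCT116. The last early domain, chr14:102000001-104000000, had 91.7% in DKO1 and 95.5% in HCT116, and was 0.13 points higher in DKO1 without outlying cells. The 3 bins beyond the widest gap were late in both lines.

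The late bins formed 10 domains, 0.56 to 6.64 Mb long and 25.2 Mb in all. The longest, chr14:82080001-88720000, was also among the least replicated, with a share of 7.36% in DKO1 and 2.97% in HCT116. Most of its bins were replicated in 5 of 194 DKO1 cells (2.6%, interval 0.8 to 5.9%) and 4 of 315 HCT116 cells (1.3%, interval 0.3 to 3.2%), and these intervals overlap.

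At chr14:25840001-30640000 (4.8 Mb) the share was 22.1% in DKO1 and 9.85% in HCT116. Most of its bins were replicated in 32 of 204 DKO1 cells (15.7%, interval 11 to 21.4%) and 15 of 322 HCT116 cells (4.7%, interval 2.6 to 7.6%). These intervals do not overlap. The shares were 16.2% in DKO1 and 9.42% in HCT116 at chr14:46080001-49520000 (3.44 Mb). They were 18.0% in DKO1 and 11.97% in HCT116 at chr14:78720001-81200000 (2.48 Mb), and 13.2% in DKO1 and 6.62% in HCT116 at chr14:43040001-45040000 (2.0 Mb). All 5 of these long late domains were thus higher in DKO1, by 4.39 to 12.3 points.

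**Figure D2:**
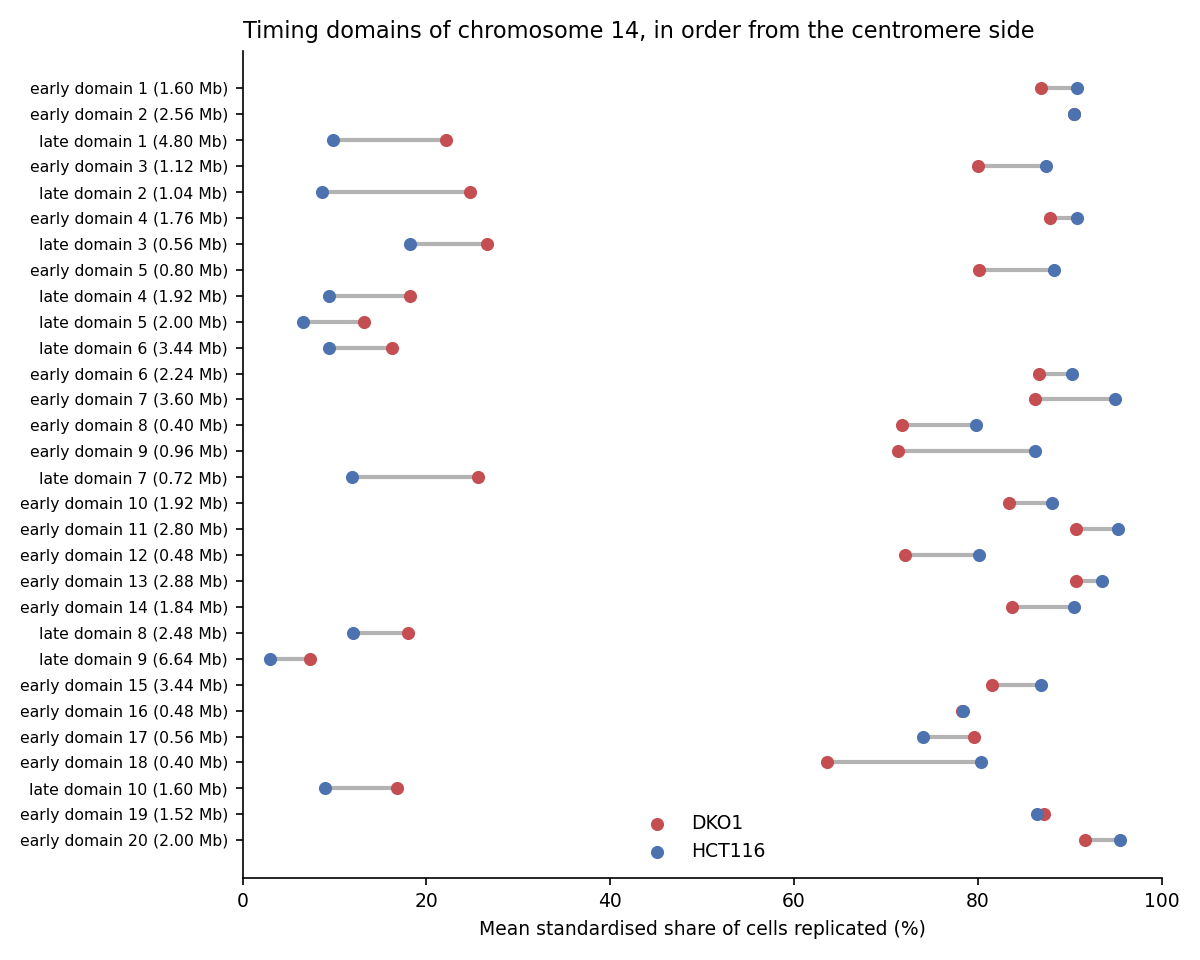
Mean standardised share of cells (percent) in each of the 20 early and 10 late domains of chromosome 14, in order from the centromere side, in DKO1 (red) and HCT116 (blue), with the length of each domain in Mb. All 10 late domains were higher in DKO1, and 17 of the 20 early domains were lower in DKO1.

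The question of the line comparison was whether these domains had another timing in DKO1, the line with the methyltransferase knockout. Late domains were higher in DKO1 in 10 of 10, with a median difference of 8.08 points (range 4.39 to 16.2). Early domains were lower in DKO1 in 17 of 20, with a median difference of -4.66 points (range -16.8 to 5.58). Without the outlying cells the late domains were still higher in DKO1 in 10 of 10 (median 6.63 points), and early domains were lower in DKO1 in 14 of 20 (median -2.80 points). The intervals of the share of cells with most of a domain replicated did not overlap in 5 of 10 late domains and 5 of 20 early domains. The cells behind these intervals are not matched for progress. The same count of domains was not made on the other chromosomes, so whether it is particular to chromosome 14 is not known.

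Over bins, the mean share of the late class was 16.2% in DKO1 and 8.20% in HCT116, a difference of 7.98 points, and 310 of 322 bins were higher in DKO1. The mean share of the early class was 85.0% in DKO1 and 89.8% in HCT116, a difference of -4.78 points, and 365 of 422 bins were lower in DKO1. The middle class had 52.0% in DKO1 and 53.1% in HCT116, with 140 bins higher and 137 lower in DKO1. Chromosome 14 was thus flatter in DKO1, and the SD of the shares across its bins was 30.4 points in DKO1 and 35.7 points in HCT116.

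Without outlying cells the early difference was -2.63 points and the late difference 7.06 points. Code 0 was read as a bin not called. In cells where it took no more than 1% of bins, only the strata from 30 to 70% progress held enough cells. The late difference was then 4.09 points and the early difference -2.37 points, against 7.54 and -3.63 points in all cells of those strata. For these values the early and late classes were formed anew from the cells used, so they need not cover the same bins.

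The same directions held in the bins of the other chromosomes, with 5.01 points in the late class and -3.46 points in early bins. Taken by chromosome, the late difference of the 20 others ranged 1.73 to 10.5 points (median 5.62) and their early difference -9.01 to 2.39 points (median -3.06). Chromosome 14 ranked 5 of 21 for the late difference, so its values lie inside the range of the others.

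By stratum, the gap of the late domains was widest at the end of S phase. At 20 to 30% progress the median late domain was replicated in 6% of DKO1 cells and 0.193% of HCT116 cells, and in 0% of DKO1 cells without the outlying ones, so that early value rests on outlying cells. At 50 to 60% progress it was replicated in 13% of DKO1 cells and 6.56% of HCT116 cells, and in 8.98% of DKO1 and 5.44% of HCT116 cells without outlying ones. At 70 to 80% progress it was 47.6% in DKO1 cells and 30.2% in HCT116 cells, and 51.0% in DKO1 and 29.1% in HCT116 without outlying cells. The stratum of 70 to 80% progress held 10 DKO1 and 18 HCT116 cells, of which 2 in DKO1 and 1 in HCT116 were outlying. There the median early domain was replicated in 77.8% of called DKO1 cells and 100% of called HCT116 cells, and in 100% of both without outlying cells.

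The borders between early and late domains lay at nearly the same places in both lines. Of 14 neighbouring pairs of an early and a late domain, 12 had a single point at which the share crossed 50% in each line. The crossing differed by less than 80 kb, the size of 1 bin, at 11 of these 12 borders, with a median absolute shift of 35.6 kb over the 12. The exception was the border between chr14:96800001-97200000 and chr14:97920001-99520000, where the crossing lay at position 97588060 in DKO1 and 97818214 in HCT116. There the early side was shorter in DKO1 by 230 kb.

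Few bins of chromosome 14 differed strongly. Bins higher in DKO1 by at least 15 points numbered 45 (4.41%), against 6.83% of the bins of all chromosomes (6.92% on the others), and bins lower in DKO1 by at least 15 points numbered 39 (3.82%), against 7.7% (7.85% on the others). Both counts lie below the background, and the median absolute difference per bin was 6.04 points. The limit cannot be met everywhere: 275 bins had an HCT116 share under 15% and could not be lower by that much, and 293 bins had one over 85% and could not be higher. Runs of at least 5 such bins numbered 2 in each direction, or 2.45 per 100 Mb each, against 6.51 higher and 7.61 lower per 100 Mb on the other chromosomes. The runs were chosen by their difference, so their values are descriptions.

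The run with the highest summed difference above HCT116, chr14:33440001-34080000, lies in the late domain chr14:33200001-34240000. Its mean share was 23.8% in DKO1 and 4.73% in HCT116. Most of its bins were replicated in 41 of 202 DKO1 cells (20.3%, interval 15 to 26.5%) and 9 of 321 HCT116 cells (2.8%, interval 1.3 to 5.3%). DKO1 cells were above HCT116 cells in each of the 6 strata, at 10.7% against 0% for 20 to 30% progress and at 55.0% against 11.8% for 70 to 80%. Without outlying cells the lowest stratum had 0% in both lines, and DKO1 was above HCT116 in the other 5. The difference varied with the cells used: it was 19.1 points in all cells, 15.1 points in all cells from 30 to 70% progress, and 4.93 points in cells of that range where code 0 took no more than 1% of bins.

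The other run higher in DKO1, chr14:29520001-30080000, lies toward the distal end of the late domain chr14:25840001-30640000. Its mean share was 25.8% in DKO1 and 8.02% in HCT116. Most of its bins were replicated in 50 of 205 DKO1 cells (24.4%, interval 18.7 to 30.9%) and 17 of 321 HCT116 cells (5.3%, interval 3.1 to 8.3%). At 30 to 70% progress its difference was 19.998 points in cells where code 0 took no more than 1% of bins and 20.97 points in all cells.

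The run with the largest summed difference below HCT116, chr14:97120001-97920000, spans the border that moved. Its mean share was 47.4% in DKO1 and 68.5% in HCT116, and most of its bins were replicated in 90 of 197 DKO1 cells (45.7%, interval 38.6 to 52.9%) and 233 of 316 HCT116 cells (73.7%, interval 68.5 to 78.5%). Its bins reached 50% of cells at a progress of 52.5% in DKO1 and 38.6% in HCT116. DKO1 was lower in 5 of the 6 strata and above HCT116 at 20 to 30% progress, where the shares were 28.6% in DKO1 and 24.4% in HCT116. Without outlying cells they were 13.6% in DKO1 and 24.4% in HCT116 there.

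The other run lower in DKO1, chr14:45280001-45760000, is a narrow earlier peak between the late domains chr14:43040001-45040000 and chr14:46080001-49520000. Its mean share was 51.7% in DKO1 and 74.9% in HCT116. Most of its bins were replicated in 110 of 204 DKO1 cells (53.9%, interval 46.8 to 60.9%) and 250 of 322 HCT116 cells (77.6%, interval 72.7 to 82.1%). It reached 50% of cells at a progress of 46.2% in DKO1 and 26% in HCT116, and DKO1 was lower in all 6 strata. At 30 to 70% progress the differences of the 2 lower runs were -27.5 and -29.2 points in cells with that little code 0, and -25.3 and -22.5 points in all cells.

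In most cells the share of chromosome 14 followed progress on the other chromosomes. Pearson's r between them was 0.737 in DKO1 and 0.924 in HCT116, and Spearman's rho was 0.782 in DKO1 and 0.947 in HCT116, over cells of 1 library each. The departure of a cell is its share of chromosome 14 minus the share expected at its progress, read from a smooth curve through the cells of both lines. Its SD was 10.4 points in DKO1 and 5.68 points in HCT116. Without the cells past 15 points it was 4.48 points in DKO1 and 3.22 points in HCT116.

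Cells that departed by more than 15 points are called outlying. They numbered 19 of 207 in DKO1 (9.18%, interval 5.62 to 13.96%) and 9 of 322 in HCT116 (2.80%, interval 1.29 to 5.24%). Over all 21 chromosomes, 5.24% of cell chromosomes were outlying in DKO1 and 1.7% in HCT116. In DKO1, 11 outlying cells were up (more of chromosome 14 replicated than expected) and 8 were down, and in HCT116, 3 were up and 6 were down. This balance changed with the treatment of code 0 and the bins used: with code 0 as unreplicated, 9 DKO1 cells were up and 16 down, and with bins called in 99% of cells 26 were up and 10 down. With equal weight to each stratum the percent was 12.1% in DKO1 and 3.15% in HCT116. The outlying cells nearest the limit departed by -15.2 points in DKO1 and 16.7 points in HCT116, and the nearest cells within it by 14.4 points in DKO1 and 11.3 points in HCT116.

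**Figure D3:**
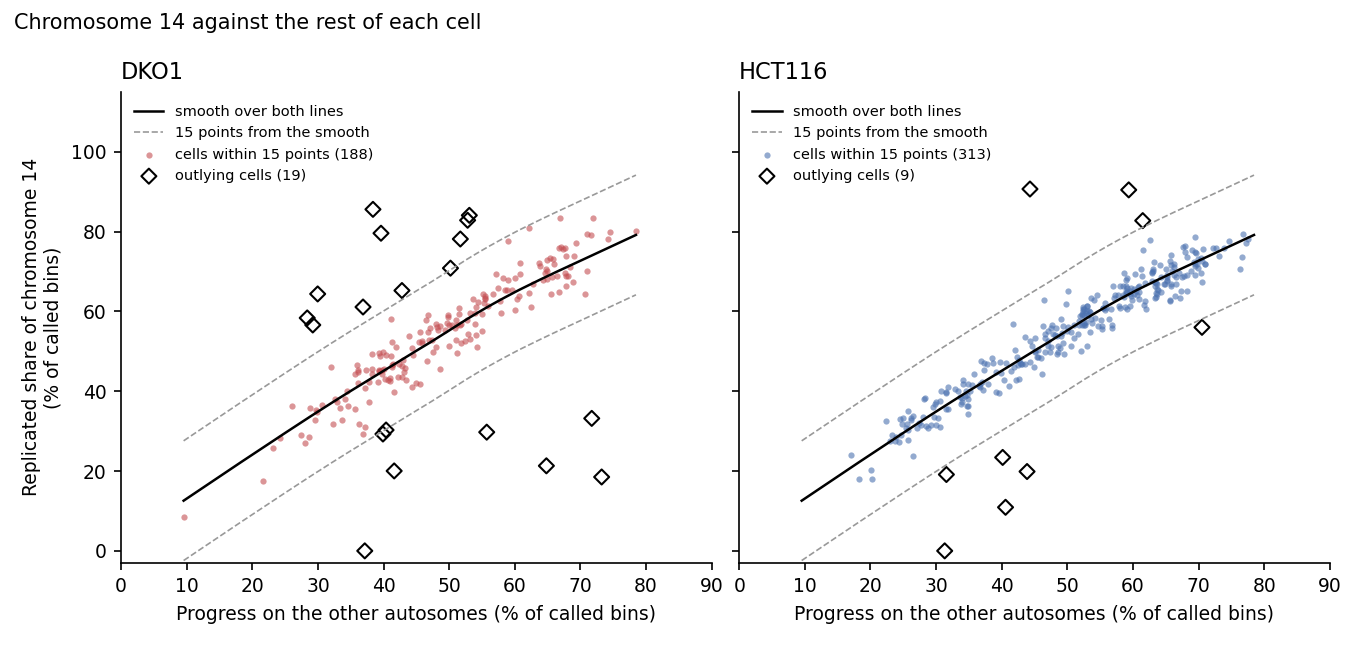
Replicated share of chromosome 14 (percent of called bins) against progress on the other autosomes (percent of called bins) for each cell of DKO1 (left) and HCT116 (right), with the smooth curve over both lines and the limits of 15 points. The 19 outlying DKO1 cells and 9 outlying HCT116 cells (diamonds) lie on both sides of the curve.

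On the other chromosomes the percent of outlying cells ranged 0.966 to 15.5% in DKO1 (median 4.83) and 0.311 to 4.66% in HCT116 (median 1.40). Chromosome 14 ranked 3 in DKO1, after chromosome 13 (15.5%) and chromosome 11 (10.6%), and 4 in HCT116. Chromosome 15, which is also acrocentric, had 1.93% in DKO1 and 2.17% in HCT116. The percent was higher in DKO1 than in HCT116 on 17 of the 20 other chromosomes. Among the cells outlying on chromosome 14, 7 of 19 in DKO1 and 3 of 9 in HCT116 were outlying on no other chromosome. Of these outlying cells, 5 in DKO1 and 2 in HCT116 were also outlying on chromosome 13, and 3 in DKO1 and 0 in HCT116 on chromosome 11. Among the remaining cells, 100 of 188 in DKO1 and 245 of 313 in HCT116 were outlying on none of the other chromosomes. Of those remaining cells, 27 in DKO1 and 13 in HCT116 were outlying on chromosome 13, and 19 in DKO1 and 2 in HCT116 on chromosome 11.

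**Figure D4:**
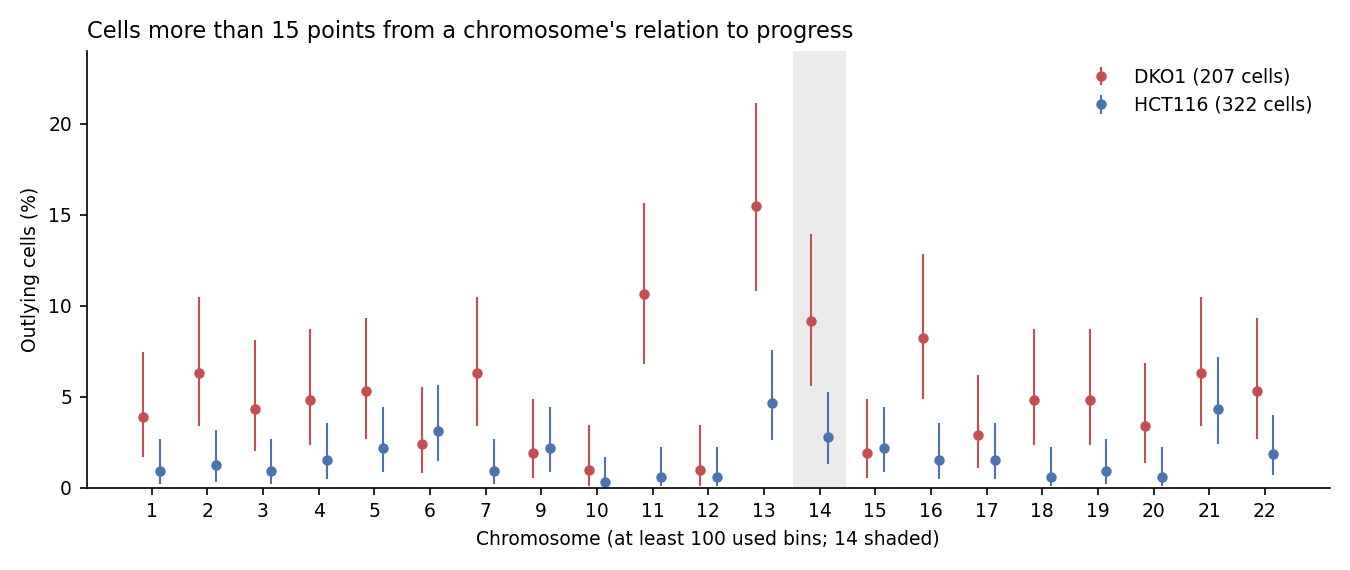
Percent of cells whose replicated share of a chromosome departed by more than 15 points from the share expected at their progress, for each of 21 chromosomes in DKO1 (red) and HCT116 (blue), with exact 95% binomial intervals that cover counting error only. Chromosome 14 (shaded) had 9.18% in DKO1 and 2.80% in HCT116.

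The up cells with the largest departures had replicated late bins of the chromosome ahead of their progress elsewhere. The DKO1 cell with the largest positive departure was at 38.4% progress and had 85.6% of its called bins of chromosome 14 replicated, including 78.8% of its late bins. The next 4 DKO1 up cells, at 39.6, 29.9, 53.1 and 28.4% progress, had shares of 79.6, 64.4, 84.1 and 58.4%. The 3 HCT116 up cells, at 44.3, 59.4 and 61.5% progress, had shares of 90.7, 90.5 and 82.8%. In windows of 5 Mb, 6 of 11 DKO1 up cells and 0 of 3 HCT116 up cells had at least 1 window more than 15 points below the expected share. In the window that starts at 20560001, 1 of 10 DKO1 up cells and 0 of 2 HCT116 up cells exceeded the share expected there by 15 points. That window is early, with a mean share of 83.9% in DKO1 and 83.6% in HCT116, which leaves little room for a rise. In the window that starts at 95600001, with mean shares of 50.6% in DKO1 and 50.2% in HCT116, 10 of 11 DKO1 up cells and 1 of 3 HCT116 up cells did. The counts of these windows are therefore not comparable.

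Most down cells held long unreplicated stretches that included early bins. The DKO1 cell with the largest negative departure was at 73.2% progress and had 18.5% of chromosome 14 replicated. All 611 of its called bins in chr14:39760001-107280000 were unreplicated, 327 of them early bins. The next DKO1 down cell, at 64.8% progress and a share of 21.3%, was unreplicated at all 559 called bins of chr14:20560001-84400000. The third, at 37.1% progress, had no called bin of the chromosome replicated, with 58.4% of its bins not called.

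The fourth DKO1 down cell, at 71.7% progress and a share of 33.2%, was unreplicated at all called bins of chr14:45360001-104000000, and the fifth, at 55.7% progress and a share of 29.7%, at those of chr14:58800001-107280000. In HCT116 the down cell with the largest departure, at 31.3% progress, had no called bin replicated and 69.4% not called. The next, at 40.6% progress and a share of 10.9%, was unreplicated at all called bins of chr14:28400001-107280000. The third, at 43.9% progress and a share of 19.9% with every bin called, changed state 55 times, and its longest unreplicated stretch spanned 12.8 Mb with 10 early bins. The fourth, at 40.2% progress and a share of 23.4%, was unreplicated at those of chr14:56080001-104000000. The fifth, at 31.6% progress and a share of 19.1%, was unreplicated at those of chr14:45760001-107280000. The HCT116 down cell with the smallest departure differed from these, with a longest unreplicated stretch of 5.36 Mb and 0 early bins in it. In that cell 76.3% of early bins and 1.86% of late bins were not called. Of its windows, 3 departed downward and 6 upward.

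The longest such stretch reached the last bins before the widest gap, or beyond it, in 5 of 8 DKO1 down cells and 3 of 6 HCT116 down cells. Its median span was 53.56 Mb in the DKO1 down cells and 36.84 Mb in the HCT116 down cells. In DKO1 cells within 15 points the longest stretch of one state had a median span of 8.40 Mb, and in such HCT116 cells 7.68 Mb. Bins not called lie inside these spans.

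**Figure D5:**
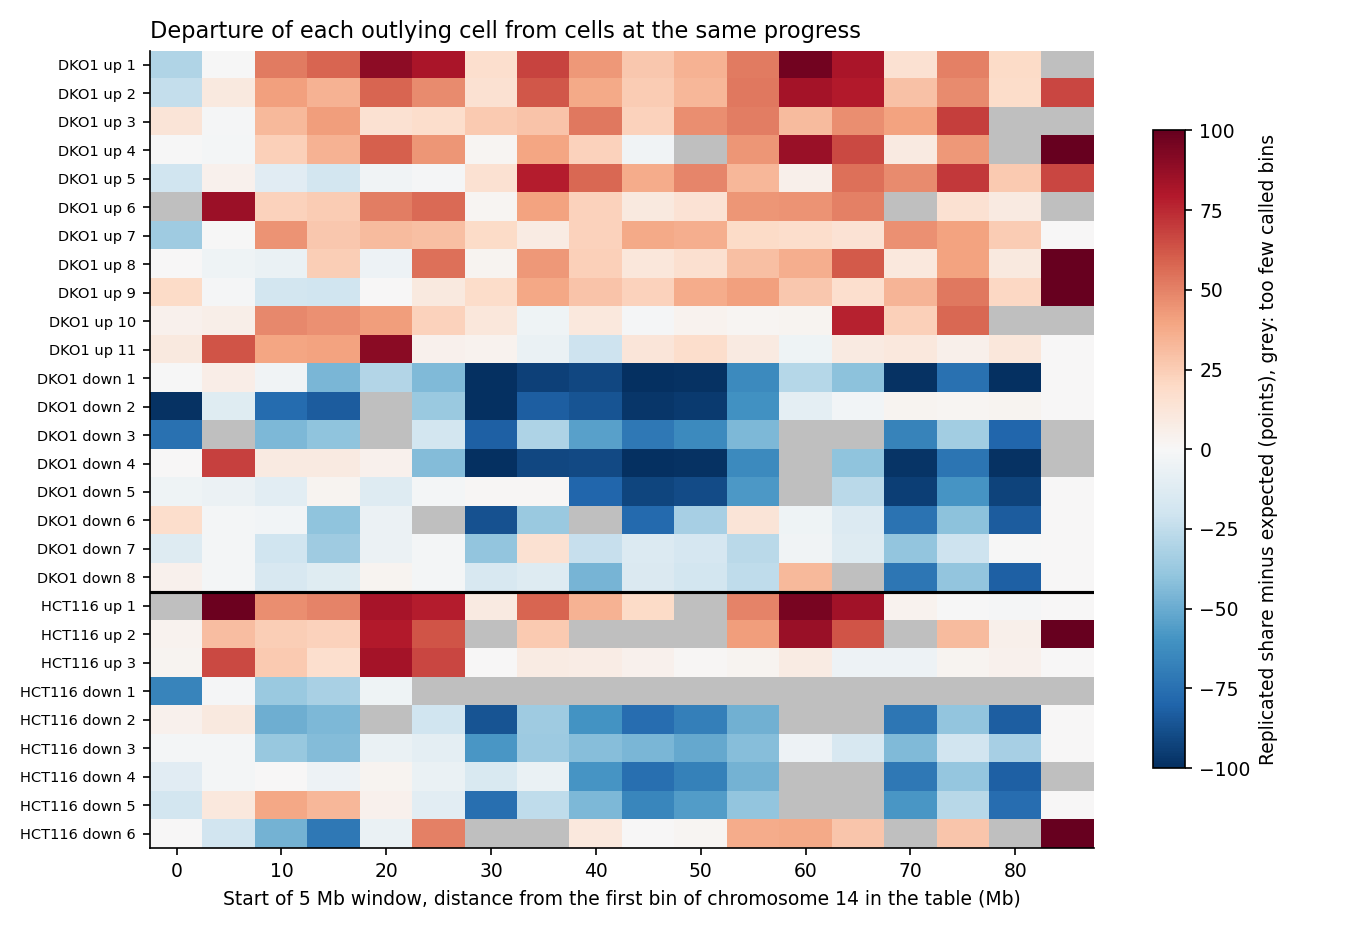
Replicated share minus the share expected at the same progress (colour, percentage points) in windows of 5 Mb along chromosome 14, for each of the 19 outlying DKO1 cells (upper rows) and 9 outlying HCT116 cells (lower rows). Grey marks windows with too few called bins, red marks windows with more replicated than expected and blue windows with less, and several down cells turn blue at one point and stay so to the distal end.

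Code 0, read as not called, was frequent in the outlying cells. It took a median of 17.5% of the bins of chromosome 14 in outlying DKO1 cells and 38.6% in outlying HCT116 cells, and a median of 0 in the remaining cells of both lines. More than 10% of the chromosome was not called in 13 of 19 outlying DKO1 cells and 7 of 9 outlying HCT116 cells, and in 11 of 188 other DKO1 cells and 3 of 313 other HCT116 cells. On the other chromosomes the same outlying cells had medians of 1.86% in DKO1 and 2.71% in HCT116. Where code 0 took no more than 1% of a cell's bins, 2 of 82 in DKO1 (2.44%) and 0 of 246 in HCT116 were outlying. With that limit set only on the other chromosomes, 4 of 82 in DKO1 (4.88%) and 3 of 246 in HCT116 (1.22%) were.

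The placement of code 0 differed with timing and with the direction of the departure. In up cells 28.3% of early bins were not called in DKO1 and 49.3% in HCT116, against 0.311% of late bins in DKO1 and 0.414% in HCT116. These percents pool cells that were unlike: 4 of 11 DKO1 up cells and 1 of 3 HCT116 up cells had no code 0 on the chromosome. The HCT116 value came from 2 cells, with 69.9 and 78.0% of their early bins not called. In DKO1 down cells 4.92% of early bins and 47.9% of late bins were not called. In HCT116 down cells the values were 31.9% of early bins and 40.5% of late bins, and 2 of the 6 cells carried the early part, with 76.5 and 76.3% of their early bins not called. The share of a cell counts called bins, so with early bins missing the share expected at a given progress is lower, and with late bins missing it is higher. When each cell was set against the share expected over its own called bins, 26 of 206 DKO1 cells and 9 of 321 HCT116 cells were outlying, among them all 19 and 8 of the 9 named above. The copy number of chromosome 14 in these cells was not measured here.

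Cells of DKO1 at like progress differed more from each other on chromosome 14. Replication width is the span of progress over which a fitted logistic curve takes a bin from 25 to 75% of cells, with each bin aligned at its own time. It was 32.5 points in DKO1 and 25.4 points in HCT116. The gap of 7.16 points ranked 2 of 21 chromosomes, after chromosome 11, and the 20 others ranged 2.39 to 7.79 points (median 3.89). Without outlying cells the widths on the first scale were 28.9 points in DKO1 and 24.4 points in HCT116, and the gap of 4.54 points ranked 4.

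Pairs of cells, both in the range of 40 to 60% progress and at most 5 points apart, differed in 23.3% of their shared called bins of chromosome 14 in DKO1 (102 cells) and 16.4% in HCT116 (139 cells), a ratio of 1.42. In early bins the pairs differed at 13.3% in DKO1 and 7.06% in HCT116. In middle bins they differed at 43.3% in DKO1 and 38.8% in HCT116, and in late bins at 16.8% in DKO1 and 7.65% in HCT116. Thus the ratio was nearest to 1 in the middle bins (1.12) and largest in the late bins (2.20), with 1.88 in early bins. Without outlying cells the overall ratio was 1.41, and it was 2.09 in early bins and 2.19 in late bins. How often 2 cells differ at a bin depends on its share, which also differed between the lines. The order of the classes was not separated from that difference in shares. The number of changes of state along the chromosome was similar, with a median of 42 per cell in DKO1 and 45 in HCT116 (quartiles 35 and 47 in DKO1, 37 and 51 in HCT116).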

How the data were processed

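Single-cell replication sequencing infers replication from DNA copy number along the genome of 1 cell. The values used are state codes (0, 1 or 2) per 80 kb bin and cell, in the table as deposited by the authors; per the file headers each column is 1 cell, and its prefix names the line and S phase. Tools named in the submitters' processing notes are Cell Ranger, SAMtools 1.10 and bedtools 2.26.0, with the builds hg19 and GRCh37. Not given in the sources used here are the model behind the codes, any filter on cells, the reads per cell and the meaning of each code. Code 2 was read as replicated, code 1 as unreplicated and code 0 as not called, because over 21 chromosomes the percent of code 2 followed protein-coding genes per Mb of a GRCh38 table (Spearman's rho 0.844), and gene-rich chromosomes replicate early; that relation is therefore no result. No annotation of the table's build was used, so no bin was assigned to a gene and no sequence is shown. Of the 4 libraries, those of G1 cells were not used here. The S-phase libraries shared 0 cell barcodes, 0 value columns were left unmapped, and no doublet caller was run.

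A bin needed a call in at least 90% of DKO1 cells and 90% of HCT116 cells. Strata needed at least 5 cells of each line, and every chromosome, the background included, was set against progress on its own remaining autosomes. Domains and differing runs were at least 5 bins long, bridging at most 1 missing bin. The expected share came from a lowess curve (fraction 0.5, 3 iterations) over both lines. Regions named were all differing runs, the 5 longest domains of each kind and the first and last domain; outlying cells named were at most the 5 with the largest departures in each direction per line. The members, lists and rules were chosen with earlier results of these data known, and the borders, windows, stretches, the placement of code 0 and 3 alternatives were chosen after these values were seen. The functions were tested on simulated data. Widths with bin times on the scale of the strata, outlying cells and shifted runs in early or middle bins were recovered. Widths with bin times on the first scale were not tested in this way. A later shift placed in late bins was not recovered, since shares there are too low to fall by 15 points over 5 bins. Python 3.11.15, NumPy 2.4.6, pandas 2.3.3, SciPy 1.17.1, statsmodels 0.14.6 and matplotlib 3.10.9 were used.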

Additional observations from a re-analysis of the deposited data

Results flagged for a closer look

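Bins with code 0, which enter no comparison of shares, were more frequent on chromosome 14 in DKO1 than in HCT116: 3.66% of calls in DKO1 and 1.35% in HCT116, a ratio of 2.72. On the other chromosomes code 0 took 2.55% of calls in DKO1 and 0.841% in HCT116. The outlying cells, 9.18% of DKO1 cells and 2.80% of HCT116 cells, held 44.9% of the code 0 of chromosome 14 in DKO1 and 74.2% in HCT116. No code 0 was present on the chromosome in 177 of 207 DKO1 cells and 309 of 322 HCT116 cells. Neither line has a replicate library, so the difference was not tested.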

How the results depend on the processing

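Over 20 results, 140 of 163 values under other settings stayed within the tolerance set for them and 23 moved. For a difference in shares the tolerance was the counting error of cells in both lines combined. It was wider than the early difference itself, so the turn of sign given below counted as within tolerance. Late differences of 4.09 to 12.5 points also counted as within it. The count within tolerance is therefore no measure of how stable these differences were. The runs higher in DKO1, 2 in the report, numbered 1 with a minimum of 99% of cells called per bin, with strata of 5 points or with no matching of progress, 4 with code 0 as unreplicated or with all cells from 30 to 70% progress (the last chosen after seeing the data), 12 with a limit of 10 points, 0 with 20 points and 7 with runs of 3 bins. The runs lower in DKO1, also 2, numbered 0 with a minimum of 99% of cells called per bin, 10 with a limit of 10 points and 6 with runs of 3 bins. The minimum of 99% left 80 of the 1021 bins and 5 strata. With it the percent of outlying cells was 17.4% in DKO1 and 5.28% in HCT116, and 7 of the 19 DKO1 cells and 5 of the 9 HCT116 cells of the report were among them. It was 2.44% in DKO1 and 0% in HCT116 in cells where code 0 took no more than 1% of bins, and 4.88% in DKO1 and 1.22% in HCT116 with that limit on the other chromosomes only (chosen after seeing the data). In cells with little code 0 by these 2 limits, the difference of the higher run in chr14:33440001-34080000 was 4.93 and 5.32 points. The gap in replication width, 7.16 points in the report, was 4.54 points without outlying cells and 3.71 points in cells with little code 0. Code 0 took 2.22% of calls in DKO1 and 0.358% in HCT116 without outlying cells. The early difference, -4.78 points in the report, ranged -5.82 to 0.0282 points. Its sign turned with a minimum of 99% of cells called per bin, a setting that also gave 12.5 points for the late difference. Under each setting the early and late classes were formed anew, so these differences need not cover the same bins. The mean share differed by -0.694 to 3.36 points, on both sides of 0. The pair ratio stayed between 1.40 and 1.49. Apart from the settings that leave out cells or bins, the cause of these moves was not tested. No paired analysis was possible because each line has 1 S-phase library. No replicate could be left out for the same reason, and the unknown read depth limits what a single call can show.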
